A study of Homo sapiens with 24 samples.

Results

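The subunits of the nuclear RNA polymerases I, II and III (Pol I, Pol II and Pol III) and the mitochondrial RNA polymerase were examined in 4 cancer cell lines in normoxia and hypoxia. Members were the rows of the count tables whose symbol starts with POLR1, POLR2 or POLR3, together with TWISTNB (now POLR1F), CD3EAP (now POLR1G), ZNRD1 (now POLR1H), CRCP and POLRMT. The rule found 36 of the 23106 genes. They comprised 6 subunits of Pol I alone, 7 of Pol II alone, 11 of Pol III alone, 2 shared by Pol I and III, 5 shared by all 3 enzymes, 4 further Pol II rows (POLR2J2, POLR2J3, POLR2J4 and POLR2M) and POLRMT. The lines were A549 (lung) and PC3 (prostate), both grown in F12K medium, HCT-116 (colorectal) in McCoy's 5a medium and T47D (breast) in DMEM. Each line gave 3 libraries of polyadenylated RNA in 21% oxygen (normoxia) and 3 after 16 h in 0.5% oxygen (hypoxia). All are established lines that stand for 1 tumor each, and no genetic change is given for any. Replicate libraries are not stated to come from separate cultures, so the p values measure only the spread between these libraries.

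Pol I transcribes the ribosomal RNA precursor in the nucleolus, Pol II transcribes mRNA and many noncoding RNAs, and Pol III transcribes tRNA and other short RNAs. Each enzyme has a catalytic core of large subunits, a stalk, and small subunits that it shares with the other enzymes. The mitochondrial enzyme POLRMT is a single chain related to phage polymerases. The products of Pol I and Pol III are largely not polyadenylated, so these libraries measure the mRNA of the subunits and not the output of those enzymes.

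Library totals ranged from 22698584 to 62850747 counts, and members took 0.189% to 0.34% of them. A count of 3, taken as the floor, corresponded to 0.0436 to 0.132 CPM (counts per 1e+06 counts of a library, with TMM factors set over all 24 libraries), and this floor covers counting error only. The hypoxia markers CA9, NDRG1 and VEGFA were higher in every hypoxic library than in every normoxic library of the same line. T47D libraries held the luminal markers ESR1, PGR and GATA3 at 108 CPM or more, but TFF1 only at 0.733 to 6.92 CPM. HCT-116 libraries held CDX2 at 10.2 to 23.1 CPM with CDH17 and VIL1 at most 0.138 CPM and CDX1 at 0. PC3 libraries held HOXB13 at 70.6 to 127 CPM, with KLK3 at 0. The lung markers NKX2-1, SFTPB, SFTPC and NAPSA were at most 0.669 CPM in A549 libraries. T47D hypoxia replicate 3 was the highest of its 3 libraries for 23 of 36 members, and HCT-116 hypoxia replicate 1 for 29 of 36. The part of these library differences in the results below was not tested beyond leaving each library out.

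Most subunits whose mRNA changed were lower in hypoxia. A call required an adjusted p under 0.05 over all genes tested (edgeR quasi-likelihood test, Benjamini-Hochberg) and a fold change over 1.2. In A549 cells, 19 of 36 members tested were lower and 1 was higher, where 17.8% of all genes tested were lower and 17.6% higher. In HCT-116 cells, 17 of 35 were lower and 6 higher, against 27% and 23.3% of all genes. The corresponding counts were 11 lower and 2 higher of 34 in PC3 cells, against 15.7% and 16.6%, and 3 lower and 1 higher of 35 in T47D cells, against 6.69% and 6.55%. As shares of the members tested, those lower were 52.8% in A549, 48.6% in HCT-116, 32.4% in PC3 and 8.57% in T47D cells. The median log2 fold change of the members (hypoxia against normoxia) was -0.32 in A549, -0.64 in HCT-116, -0.23 in PC3 and -0.20 in T47D cells, while that over every gene tested was -0.03 to -0.01. Libraries of the states did not overlap for 23 of 36 members in A549, 22 of 35 in HCT-116, 17 of 34 in PC3 and 14 of 35 in T47D cells, against 47.9%, 60.4%, 50.6% and 32.3% of all genes. A fit blocked by replicate number gave 17 lower members in A549 (18% of all genes), 18 in HCT-116 (29.6%), 12 in PC3 (16.6%) and 7 in T47D cells (10.5%), where it added POLR2G, POLR2M, POLR3E and POLR3K. In T47D cells, scaling to total counts gave 8 lower and 1 higher, against 10% and 4.73% of all genes. Without T47D normoxia replicate 1 or 2 edgeR called no member in that line, where 0.133% and 0.597% of all genes were then lower. Without T47D hypoxia replicate 1, 2 or 3 there were 1, 2 and 10 lower members (2.54%, 3.44% and 12.2% of all genes), and without normoxia replicate 3 there were 5 (11.4%). In A549 cells the 19 lower members became 10 without normoxia replicate 2 (10.4% of all genes) and 12 without hypoxia replicate 2 (10.9%). In bulk RNA, fewer cells that express a gene and less of its RNA per cell cannot be told apart.

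**Figure D1:**
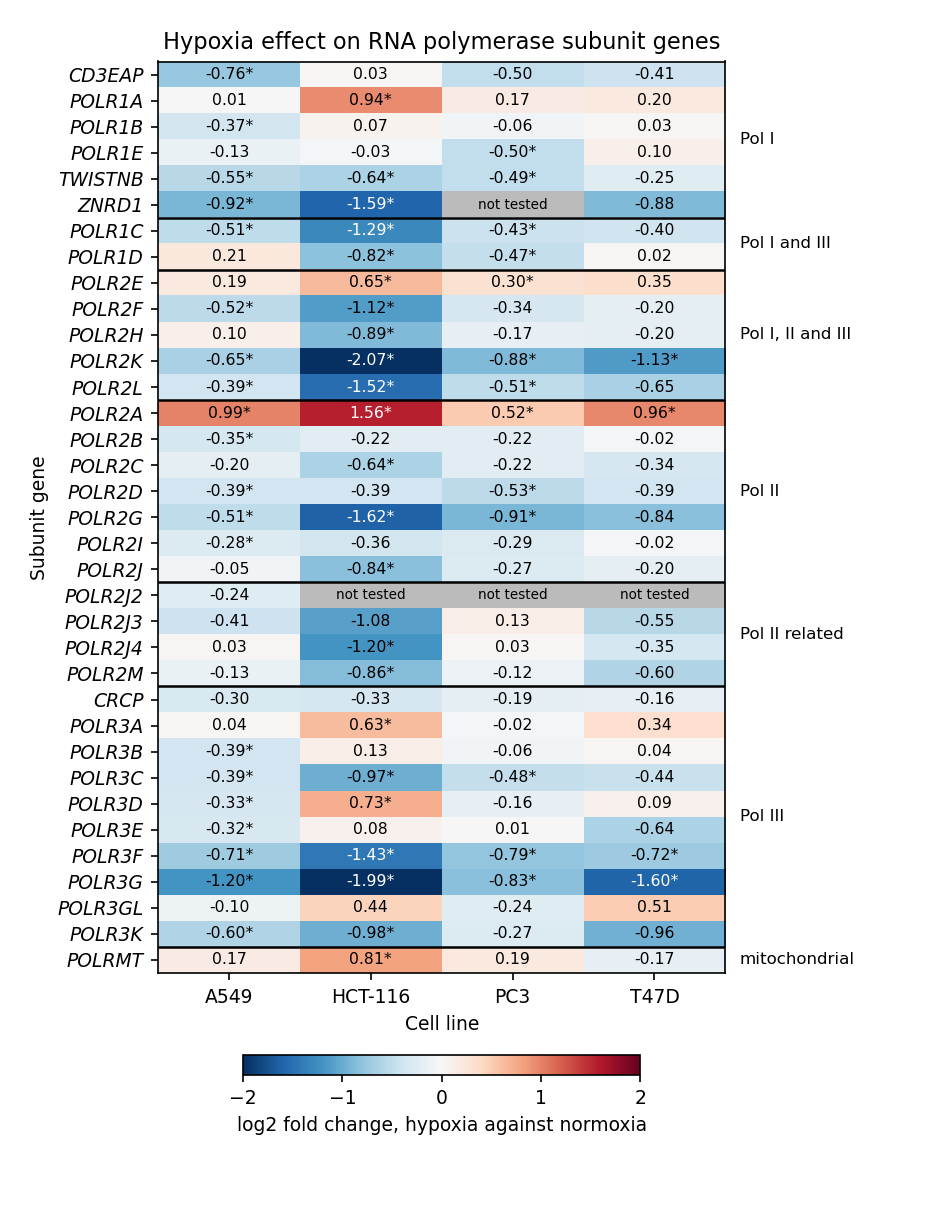
Log2 fold change in hypoxia of 35 of the subunit genes (rows, grouped by the polymerase that holds them) in 4 cell lines (columns). Asterisks mark calls (adjusted p under 0.05 and fold change over 1.2), colors are capped at 2 in either direction, and grey cells were not tested for low counts. POLR2A is the one row higher and called in all 4 lines, with values from 0.52 to 1.56, and POLR2K, POLR3F and POLR3G are lower and called in all 4.

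Of the 34 members tested in every line, 1 (POLR2A) was higher in all 4 lines and 3 (POLR2K, POLR3F and POLR3G) were lower in all 4, where 2.58% of the genes tested in every line were higher and 3.36% lower in all 4. A further 5 members were lower in 3 lines, namely the Pol I stalk subunit TWISTNB, POLR1C, POLR2G, POLR2L and POLR3C. With the replicate block POLR2G was lower in all 4 lines and POLR3K in 3, and the matching shares of all genes were not counted. At least 3 lines showed a decrease for 10.5% and an increase for 9.13% of all genes tested in every line. No decrease was called in any line for 9 of the 34, among them POLR1A, POLR2A, POLR2E, POLR2J3, POLR3A, POLR3GL, CRCP and POLRMT. POLR3D was the 1 member called in opposite directions in 2 lines, which 1.26% of all genes were.

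Promoters of the members were searched for ACGTG or GCGTG, the core to which hypoxia-inducible factors bind, on both strands of the 250 bases before the start site (RefSeq, GRCh38.p14). A match was found in 15 of the 25 members that have an entry (60%), against 43.1% of 27305 promoters. CACGTG, which holds ACGTG on each strand, was found in 3 of 25 (12%), against 6.49%. POLR2A (chr17:7484116-7484365, plus strand) is shown because it was higher in all 4 lines, POLR3F (chr20:18467140-18467389, plus strand) because it was lower in all 4, and POLR3A (chr10:78029516-78029765, minus strand) because it held the most matches. Capitals mark matches, of which POLR3A has 4, with its CACGTG counted once on each strand, and the others none.
POLR2A: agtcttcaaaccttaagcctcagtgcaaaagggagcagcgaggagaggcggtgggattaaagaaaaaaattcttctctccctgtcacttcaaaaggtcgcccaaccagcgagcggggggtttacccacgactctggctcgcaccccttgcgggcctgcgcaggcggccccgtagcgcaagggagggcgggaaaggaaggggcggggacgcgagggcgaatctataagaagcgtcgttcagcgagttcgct
POLR3F: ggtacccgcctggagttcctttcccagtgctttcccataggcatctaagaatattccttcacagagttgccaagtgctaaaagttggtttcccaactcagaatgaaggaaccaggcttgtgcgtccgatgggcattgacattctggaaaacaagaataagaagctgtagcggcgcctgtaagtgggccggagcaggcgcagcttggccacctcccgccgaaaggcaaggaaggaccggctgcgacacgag
POLR3A: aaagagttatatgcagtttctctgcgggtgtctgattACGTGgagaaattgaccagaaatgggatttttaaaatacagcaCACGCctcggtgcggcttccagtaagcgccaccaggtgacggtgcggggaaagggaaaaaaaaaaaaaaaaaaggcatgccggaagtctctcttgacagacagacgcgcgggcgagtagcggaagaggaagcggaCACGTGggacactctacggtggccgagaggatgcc
A match of these letters is a description and not a binding site. CD3EAP (with 1 CACGTG) and POLR3E (without CACGTG) had 3 matches each by the same count, and both were lower in A549 cells and called in no other line. POLR3A leads POLR3E only because CACGTG is counted on each strand.

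POLR2A (GRCh37, chromosome 17, 7387685 to 7417933, 30 exons) encodes the largest subunit of Pol II, with the catalytic site and the repeated C-terminal domain that is phosphorylated during transcription. In A549 cells, POLR2A was at 162, 170 and 269 CPM in the normoxic libraries and at 440, 443 and 312 CPM in the hypoxic ones. HCT-116 cells had 297, 162 and 134 CPM in normoxia and 735, 527 and 658 CPM in hypoxia. PC3 cells had 104, 141 and 80 CPM in normoxia and 170, 163 and 150 CPM in hypoxia. The states did not overlap in these lines, and PC3 cells had the lowest mean of the 4 lines in both states. T47D cells had 170, 193 and 227 CPM in normoxia and 452, 497 and 267 CPM in hypoxia, again without overlap, although hypoxia replicate 3 was close to the normoxic range. The log2 fold change was 0.99 ± 0.19 (SE, n = 3 against 3, edgeR adjusted p = 0.0027) in A549, 1.56 ± 0.30 (0.000997) in HCT-116, 0.52 ± 0.16 (0.0325) in PC3 and 0.96 ± 0.25 (0.0272) in T47D cells. In PC3 cells the call was lost without any 1 of 4 libraries (hypoxia replicates 1, 2 or 3 or normoxia replicate 1, adjusted p from 0.0551 to 0.103 by edgeR), and in T47D cells without hypoxia replicate 1 or 2 or normoxia replicate 1 or 2 (0.0932 to 0.178).

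The other 6 subunits of Pol II alone did not share this increase. POLR2B, the second largest subunit, had a log2 fold change of -0.35 ± 0.10 (adjusted p = 0.0214, edgeR) in A549 cells and was not called elsewhere. POLR2G forms the stalk with POLR2D. It was at 72.7, 67.5 and 55.9 CPM in normoxia and 43.5, 47.1 and 47.4 CPM in hypoxia in A549 cells. HCT-116 cells had 114, 186 and 92.3 CPM against 50.1, 47.2 and 42.7 CPM, and PC3 cells 76, 65.3 and 101 CPM against 39.3, 46.3 and 48.1 CPM. In these lines every hypoxic library was below every normoxic one, with log2 fold changes of -0.51 ± 0.12, -1.62 ± 0.26 and -0.91 ± 0.16 (edgeR adjusted p = 0.00611, 0.000322 and 0.00466). In T47D cells, POLR2G was at 182, 168 and 133 CPM in normoxia and 79.9, 70.9 and 135 CPM in hypoxia, so that replicate 3 overlapped. Its T47D change of -0.84 ± 0.27 missed the threshold (edgeR adjusted p = 0.0554) and passed with the replicate block (-0.89, 0.0413). POLR2D was lower in A549 (-0.39) and PC3 (-0.53) cells, POLR2C and POLR2J, which pair in the assembly of the enzyme, in HCT-116 cells (-0.64 and -0.84), and POLR2I, a small subunit at the jaw, in A549 cells (-0.28, adjusted p = 0.0478 by edgeR and 0.0825 with the block).

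Among the Pol II related rows, POLR2M, whose product binds Pol II, was lower in HCT-116 cells (-0.86 ± 0.21). POLR2J2 and POLR2J3 are near-identical copies of POLR2J, and POLR2J4 is annotated as a noncoding RNA of the same family, so their counts are uncertain. POLR2J2 passed the filter on low counts in A549 cells alone. POLR2J4 was at 3.7, 3.78 and 2.81 CPM in normoxia and 1.73, 1.51 and 1.63 CPM in hypoxia in HCT-116 cells (-1.20 ± 0.31, edgeR adjusted p = 0.00618). In the other lines its levels were 3.32 ± 0.394 and 3.40 ± 0.651 CPM (SD, n = 3; normoxia and hypoxia) in A549, 4.99 ± 0.462 and 5.30 ± 0.574 CPM in PC3 and 5.95 ± 0.781 and 4.96 ± 0.355 CPM in T47D cells, with no call.

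The Pol I subunits differed among themselves. POLR1A, the largest and catalytic subunit, was higher in HCT-116 cells, at 81.4, 32.6 and 36.2 CPM in normoxia and 140, 66.1 and 108 CPM in hypoxia (0.94 ± 0.35, edgeR adjusted p = 0.0391). The states overlapped, and the call was lost without hypoxia replicate 1 or normoxia replicate 2 or 3 (adjusted p from 0.106 to 0.115 by edgeR). POLR1A was at 78.9, 82.6 and 116 CPM against 92.7, 110 and 77.9 CPM in A549 cells and at 106, 149 and 94.1 CPM against 113, 148 and 145 CPM in PC3 cells. T47D cells had 37.7, 43 and 40 CPM against 59.4, 60.3 and 27.2 CPM, with hypoxia replicate 3 below the normoxic libraries. In these 3 lines POLR1A overlapped between states and was not called, although without PC3 normoxia replicate 2 it passed in PC3 cells (0.37, adjusted p = 0.0379 by edgeR).

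TWISTNB was lower in A549 (-0.55 ± 0.12), HCT-116 (-0.64 ± 0.20) and PC3 (-0.49 ± 0.09) cells. CD3EAP and POLR1E form a Pol I subcomplex akin to a Pol II initiation factor. CD3EAP was lower in A549 cells (-0.76 ± 0.14) and, with the replicate block, in PC3 cells (-0.52, edgeR adjusted p = 0.0309, against 0.0527 without it), and POLR1E was lower in PC3 cells (-0.50 ± 0.11). POLR1B, the second largest subunit, was lower in A549 cells (-0.37 ± 0.12). In T47D cells edgeR called no subunit of Pol I alone, with 1 lower and none higher at an unadjusted p under 0.05 and none by DESeq2.

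ZNRD1, the small Pol I subunit tied to RNA cleavage, was at 7.97, 9.34 and 5.56 CPM in normoxia and 3.08, 3.84 and 5.21 CPM in hypoxia in A549 cells (-0.92 ± 0.24, edgeR adjusted p = 0.0107). HCT-116 cells had 5.97, 11 and 5.18 CPM against 2.38, 3.73 and 1.9 CPM (-1.59 ± 0.35, adjusted p = 0.00234, edgeR). T47D cells had 17.6, 16.2 and 11.9 CPM against 6.37, 5.31 and 14.5 CPM (-0.88 ± 0.34, adjusted p = 0.105, edgeR), where hypoxia replicate 3 lay among the normoxic libraries and without it the change was -1.47 (0.00228). All 6 PC3 libraries listed ZNRD1 at 0. Other widely used genes of this region of chromosome 6 were also at or near 0 in some lines, such as DHX16, with 0 counts in all HCT-116 and PC3 libraries, and FLOT1, with at most 3 counts in PC3 and A549 libraries. The ZNRD1 value in PC3 cells is therefore given as a listed value alone, and no fold change of ZNRD1 between lines is given. Counts of GTF2H4, of this region, ran from 4 to 203 in A549, 2 to 174 in HCT-116 and 4 to 231 in T47D libraries. Those of PPP1R11 ran only from 853 to 1063 in A549 libraries. Whether this affects the ZNRD1 changes within a line was not tested. In A549 cells the call was lost without normoxia replicate 2 (-0.75, edgeR adjusted p = 0.0557).

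Of the Pol III subunits, POLR3F and POLR3G were lower in all 4 lines, and with POLR3C they form a subcomplex that helps the enzyme open promoters. POLR3G (GRCh37, chromosome 5, 89767565 to 89810374, 8 exons) and POLR3GL (chromosome 1, 145456236 to 145470400, 8 exons) encode alternative versions of 1 subunit, of which POLR3G is known from stem and proliferating cells and POLR3GL is widely expressed. In A549 cells, POLR3G was at 36.2, 43 and 33.1 CPM in normoxia and 13.9, 16.9 and 18.2 CPM in hypoxia. HCT-116 cells had 197, 296 and 173 CPM against 70.2, 61.8 and 52.2 CPM, and PC3 cells 122, 114 and 153 CPM against 64.6, 75.7 and 87.1 CPM. T47D cells had far lower levels, at 8.05, 8.05 and 3.9 CPM against 2.69, 2.02 and 2.3 CPM. The states did not overlap in any line. The log2 fold changes were -1.20 ± 0.14 (edgeR adjusted p = 0.000104), -1.99 ± 0.25 (0.000108), -0.83 ± 0.15 (0.0044) and -1.60 ± 0.33 (0.0105) in A549, HCT-116, PC3 and T47D cells. Only the T47D call was lost on leaving out 1 library, normoxia replicate 1 (-1.43, adjusted p = 0.107 by edgeR) or 2 (-1.44, 0.0731).

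POLR3GL was called in no line. Its levels were 9.09, 8.54 and 7.93 CPM in normoxia against 8.78, 7.3 and 7.78 CPM in hypoxia in A549 cells, and 8.69, 7.51 and 15.5 CPM against 13.8, 17.6 and 15.2 CPM in HCT-116 cells. PC3 cells had 3.73, 4.93 and 3.49 CPM against 3.7, 3.34 and 3.69 CPM, and T47D cells 9.49, 8.7 and 13.8 CPM against 14.7, 16.1 and 17.3 CPM. The log2 fold changes were -0.10 ± 0.15, 0.44 ± 0.25, -0.24 ± 0.18 and 0.51 ± 0.22 (edgeR adjusted p from 0.133 to 0.624). In T47D cells every hypoxic library was above every normoxic one, and without normoxia replicate 3 POLR3GL passed the test in both HCT-116 (0.84, adjusted p = 0.0126 by edgeR) and T47D cells (0.71, 0.0388).

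The ratio of POLR3G to POLR3GL per kilobase of transcript was lower in hypoxia in every line. Its log2 value (with 2 counts added to each gene) was 0.64 ± 0.18 in normoxia and -0.45 ± 0.32 in hypoxia (SD, n = 3) in A549 cells. Per kilobase, the more abundant of the paired mRNAs in A549 cells thus changed from POLR3G to POLR3GL. HCT-116 cells went from 2.94 ± 0.91 to 0.50 ± 0.32 and PC3 cells from 3.50 ± 0.45 to 2.90 ± 0.24, with POLR3G the more abundant in both states. T47D cells went from -2.20 ± 0.95 to -4.25 ± 0.29, with POLR3GL the more abundant in both states. Over the 4 lines the mean change was -1.55 (exact two-sided permutation of states within lines, 160000 regroupings, p = 2.5e-05, where the smallest possible was 1.25e-05). With libraries paired by replicate number in every line, 12 of 12 pairs were lower in hypoxia (exact test over 4096 sign flips, p = 0.000488). Every hypoxic library was below every normoxic one in A549, HCT-116 and T47D cells. States overlapped in PC3 cells, where hypoxia replicates 2 and 3 (3.01 and 3.07) lay close to normoxia replicate 2 (3.04). Which mRNA is the more abundant depends on the transcript lengths taken, 3290 bases for POLR3G and 1178 for POLR3GL. By CPM, POLR3G stayed above POLR3GL in A549 cells, at 37.4 against 8.52 in normoxia and 16.3 against 7.95 in hypoxia.

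**Figure D2:**
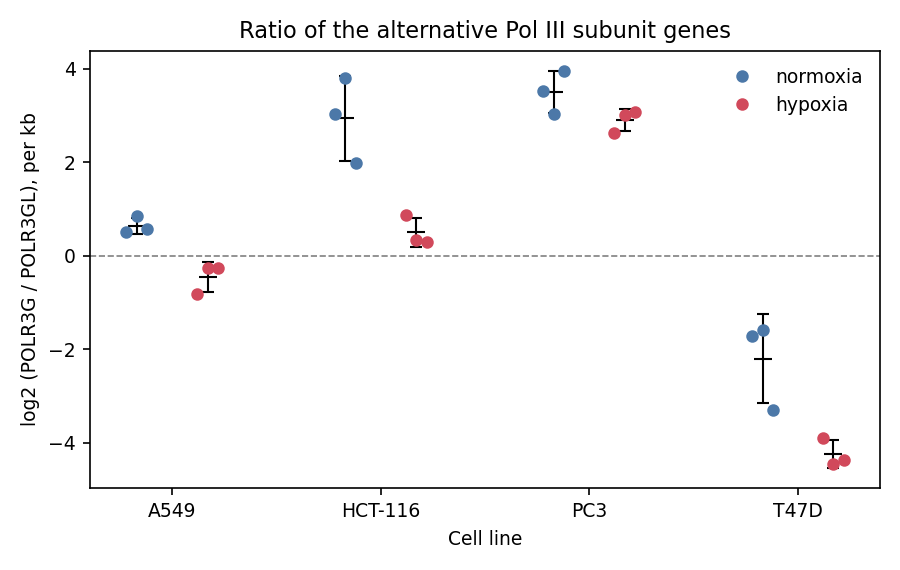
Log2 ratio of POLR3G to POLR3GL per kilobase in each of the 24 libraries (points), by cell line and oxygen state, with the mean and SD of 3 libraries (black). The dashed line marks equal levels per kilobase, which A549 cells crossed from 0.64 to -0.45, and its place depends on the transcript lengths taken. The hypoxic mean is below the normoxic mean in each line.

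POLR3F (GRCh37, chromosome 20, 18447522 to 18465292, 9 exons) was at 30.2, 31.5 and 23.3 CPM in normoxia and 15.2, 17.6 and 19.5 CPM in hypoxia in A549 cells. HCT-116 cells had 36.3, 52.3 and 40.9 CPM against 19.6, 14.7 and 18.2 CPM, and PC3 cells 37.9, 36.3 and 43.6 CPM against 22.4, 23.8 and 24.4 CPM. T47D cells had 26.8, 20 and 19.9 CPM against 14.1, 13.8 and 15 CPM. No hypoxic library reached its line's normoxic range, and the log2 fold changes were -0.71 ± 0.14, -1.43 ± 0.21, -0.79 ± 0.11 and -0.72 ± 0.21 (edgeR adjusted p = 0.0031, 0.000222, 0.00189 and 0.0388). In T47D cells the call was lost without hypoxia replicate 1 or 2 or normoxia replicate 1 or 2 (adjusted p from 0.0942 to 0.209 by edgeR). POLR3C was lower in A549 (-0.39 ± 0.10), HCT-116 (-0.97 ± 0.19) and PC3 (-0.48 ± 0.11) cells.

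**Figure D3:**
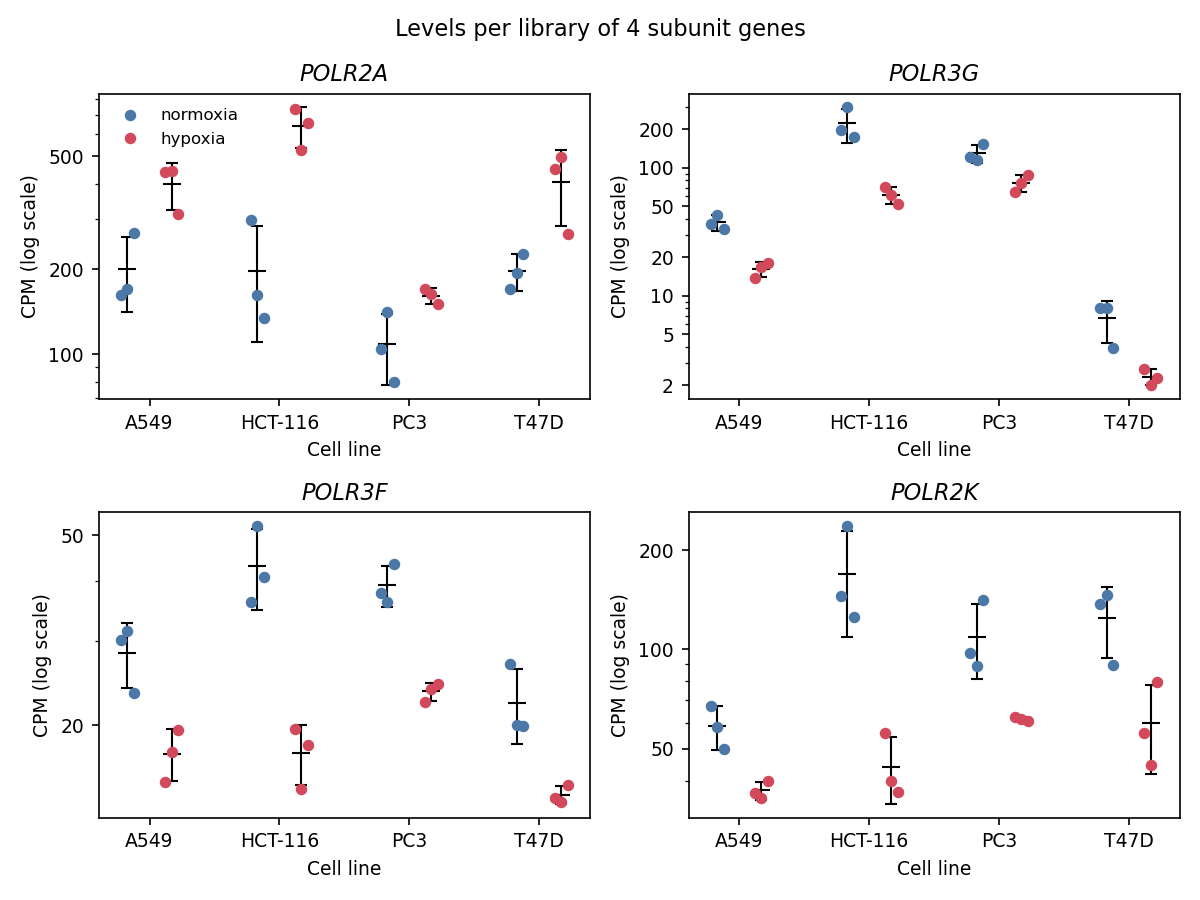
Levels in CPM (log scale) of POLR2A, POLR3G, POLR3F and POLR2K in each library (points), by cell line and oxygen state, with the mean and SD of 3 libraries (black). POLR2A is higher in hypoxia and the other 3 genes are lower, without overlap between states of a line, and POLR3G spans from 2.02 CPM in T47D to 296 CPM in HCT-116 libraries.

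The catalytic Pol III subunit POLR3A was higher in HCT-116 cells, at 49.3, 33.2 and 39 CPM in normoxia and 68.7, 64.8 and 71.7 CPM in hypoxia (0.63 ± 0.20, edgeR adjusted p = 0.0178). It was at 43.1, 41.1 and 48.9 CPM against 45.4, 48.6 and 43.4 CPM in A549 cells and at 191, 242 and 177 CPM against 179, 221 and 222 CPM in PC3 cells. T47D cells had 54.3, 55.1 and 66.3 CPM against 76.8, 86.8 and 71.1 CPM, which did not overlap but did not pass the test (0.34 ± 0.18, edgeR adjusted p = 0.234). Without HCT-116 hypoxia replicate 3 the HCT-116 value was 0.65 (adjusted p = 0.0575 by edgeR).

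POLR3D pairs with POLR3E in a module for initiation and termination. In HCT-116 cells POLR3D was at 24.4, 22.1 and 28.6 CPM in normoxia and 40.6, 50.4 and 44.3 CPM in hypoxia (0.73 ± 0.18, edgeR adjusted p = 0.00487). In A549 cells it was at 46.9, 45.7 and 46.9 CPM against 38.2, 37.5 and 35.9 CPM (-0.33 ± 0.10, edgeR adjusted p = 0.0222). Both lines were without overlap, in opposite directions, but the A549 call was lost without hypoxia replicate 2 or 3 or normoxia replicate 1 or 2 (adjusted p from 0.0503 to 0.0933 by edgeR). PC3 cells had 26.6, 30.6 and 24.4 CPM against 22.4, 26.9 and 26.4 CPM and T47D cells 15, 16 and 19.8 CPM against 17, 19.2 and 20.7 CPM, with no call. POLR3E was lower in A549 cells (-0.32 ± 0.10, edgeR adjusted p = 0.0304, and 0.0501 with the block). In T47D cells its value was -0.64 ± 0.21 (edgeR adjusted p = 0.0596, and 0.0385 with the block).

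Of the remaining Pol III subunits, POLR3K, which takes part in RNA cleavage, was lower in A549 (-0.60 ± 0.12) and HCT-116 (-0.98 ± 0.25) cells, and its T47D value of -0.96 ± 0.30 passed with the replicate block (edgeR adjusted p = 0.0512 without it and 0.0216 with it). POLR3B, the second largest subunit, was lower in A549 cells (-0.39 ± 0.12). The stalk subunit CRCP was called in no line by edgeR, with log2 fold changes from -0.33 to -0.16.

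Shared subunits are mostly small proteins of the enzyme core. POLR2K, a zinc-binding subunit of all 3 enzymes, was at 67.3, 58 and 49.8 CPM in normoxia and 36.6, 35.4 and 40 CPM in hypoxia in A549 cells. HCT-116 cells had 145, 237 and 125 CPM against 55.6, 39.8 and 36.8 CPM, and PC3 cells 97.7, 88.8 and 141 CPM against 62.5, 61.6 and 60.5 CPM. T47D cells had 137, 146 and 89.8 CPM against 55.7, 44.5 and 79.8 CPM. Every hypoxic library was below every normoxic library of its line, with log2 fold changes of -0.65 ± 0.12, -2.07 ± 0.27, -0.88 ± 0.17 and -1.13 ± 0.27 (edgeR adjusted p = 0.00223, 0.000148, 0.00537 and 0.0188). In T47D cells the call was lost without hypoxia replicate 1 or normoxia replicate 1 or 2 (adjusted p from 0.0544 to 0.14 by edgeR). POLR2L was lower in A549 (-0.39 ± 0.11), HCT-116 (-1.52 ± 0.26) and PC3 (-0.51 ± 0.16) cells, POLR2F in A549 (-0.52 ± 0.11) and HCT-116 (-1.12 ± 0.25) cells, and POLR2H in HCT-116 cells (-0.89 ± 0.23). POLR2E went the other way, with increases of 0.65 ± 0.21 in HCT-116 and 0.30 ± 0.09 in PC3 cells (edgeR adjusted p = 0.0191 and 0.0264).

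POLR1C and POLR1D form the assembly platform that Pol I and Pol III share. POLR1C was lower in PC3 (-0.43 ± 0.14), A549 (-0.51 ± 0.12) and HCT-116 (-1.29 ± 0.22) cells. POLR1D was lower in HCT-116 (-0.82 ± 0.23) and PC3 (-0.47 ± 0.13) cells and was 75.8 ± 5.74 and 87.9 ± 8.44 CPM (SD, n = 3; normoxia and hypoxia) in A549 cells (0.21 ± 0.11, SE, edgeR adjusted p = 0.172).

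POLRMT (GRCh37, chromosome 19, 617221 to 633537, 21 exons) was higher in HCT-116 cells, at 123, 81.7 and 92.8 CPM in normoxia and 212, 178 and 181 CPM in hypoxia without overlap (0.81 ± 0.21, edgeR adjusted p = 0.00659). The levels were 85.7, 78 and 105 CPM against 107, 103 and 93.4 CPM in A549 cells and 92.9, 104 and 75.6 CPM against 101, 112 and 107 CPM in PC3 cells. T47D cells had the lowest levels, at 31.2, 43.6 and 46.4 CPM against 32, 38.7 and 42.8 CPM. These 3 lines overlapped between states and gave no call.

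The polymerases were then compared by the median log2 fold change of the subunits that each holds alone, with the SD over the 3 hypoxic libraries. This SD is that of each hypoxic library's median, or difference of medians, against the normoxic mean. It leaves out the spread between normoxic libraries and is not the error of the median it follows. In A549 cells the medians were -0.46 ± 0.20 for Pol I, -0.28 ± 0.08 for Pol II and -0.33 ± 0.05 for Pol III, with 4 of 6, 4 of 7 and 7 of 11 lower. In HCT-116 cells they were 0 ± 0.38, -0.39 ± 0.22 and -0.06 ± 0.41, with 2, 3 and 4 lower and 1, 1 and 2 higher. As shares, 33.3%, 42.9% and 36.4% were lower and 16.7%, 14.3% and 18.2% higher, against 27% and 23.3% of all genes. PC3 cells had -0.49 ± 0.16 for the 5 Pol I subunits tested, -0.27 ± 0.05 and -0.19 ± 0.07, with 2, 2 and 3 lower. T47D cells had -0.11 ± 0.01, -0.20 ± 0.21 and -0.16 ± 0.13, with none, none and 2 lower (Pol II had 1 lower subunit at an unadjusted p under 0.05 by edgeR and 1 by DESeq2). With the replicate block, 4, 3 and 6 subunits of Pol I, Pol II and Pol III were lower in A549 and 2, 3 and 4 in HCT-116 cells. The block gave 3, 2 and 3 in PC3 and 0, 1 and 4 in T47D cells. Of all genes, 17.8%, 27%, 15.7% and 6.69% were lower in A549, HCT-116, PC3 and T47D cells without the block. With the block, 18%, 29.6%, 16.6% and 10.5% of all genes were lower. The T47D library medians for Pol I ran from -0.06 to -0.04, so that -0.11 lies outside them. In PC3 cells the same held for Pol II (-0.27, libraries from -0.26 to -0.17) and Pol III (-0.19, libraries from -0.17 to -0.05). Pol I minus Pol II was -0.18 ± 0.11 in A549, 0.40 ± 0.23 in HCT-116, -0.21 ± 0.19 in PC3 and 0.09 ± 0.22 in T47D cells. Pol III minus Pol II was -0.05 ± 0.13, 0.33 ± 0.26, 0.08 ± 0.11 and 0.04 ± 0.14. These differences had no common direction over the 4 lines, and in HCT-116 cells both turned negative (-0.08 and -0.11) when the shared subunits were counted in each enzyme.

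**Figure D4:**
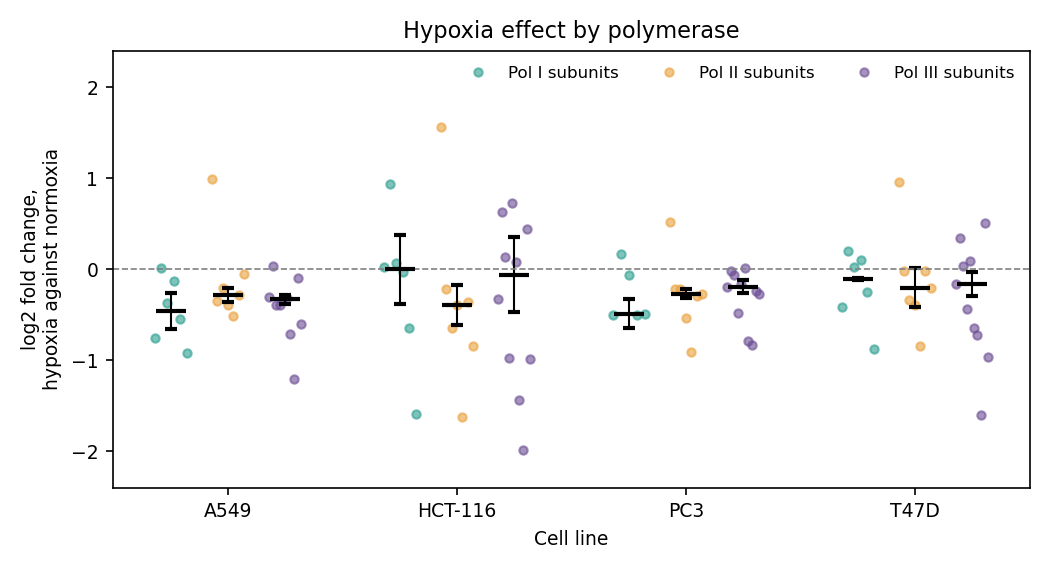
Log2 fold change in hypoxia of the subunits reported that belong to Pol I, Pol II or Pol III alone (points), by cell line. Black bars give the median, with the SD of the medians of the 3 hypoxic libraries against the normoxic mean. The medians lie between -0.49 and 0, and POLR2A stands above the other Pol II subunits in every line.

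Per kilobase of transcript, normoxic levels were higher for Pol II than for Pol I and Pol III. The median over the subunits of Pol II alone was 34 to 59.5 CPM per kilobase in the 4 lines, against 6.87 to 12 for Pol I and 8.92 to 17.3 for Pol III. Subunits shared by all 3 enzymes had medians of 53.2 to 91.4 and those shared by Pol I and III of 54 to 160, and POLRMT was at 10.7 to 26.3. Within Pol II, line means ran from 11.6 to 18.6 CPM per kilobase for POLR2D up to 82.6 to 203 for POLR2G, with POLR2A at 17.2 to 31.8. POLR2G was the highest of them in HCT-116, PC3 and T47D cells, and POLR2I (132 against 82.6 for POLR2G) in A549 cells. The levels depend on the transcript taken for each gene, here 1 annotated transcript each.

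In normoxia the level of 34 of 36 members differed between lines (edgeR, adjusted p under 0.05 and fold over 1.2), as did 93.5% of all genes tested, and 25 differed over 2-fold, against 79.9%. These counts include ZNRD1, which PC3 libraries list at 0, and leaving it out, a choice made after seeing the data, gave 33 of 35 and 24. POLR3C (1.19-fold between the highest and lowest line, adjusted p = 0.397 by edgeR) and POLR3E (1.32-fold, 0.128) did not pass. POLR3G had a 33.4-fold range, from 222 ± 65.2 CPM (SD, n = 3) in HCT-116 over 130 ± 20.5 in PC3 and 37.4 ± 5.06 in A549 to 6.67 ± 2.39 in T47D cells (edgeR adjusted p = 5.24e-10). The normoxic libraries of neighbouring lines in this order did not overlap, the nearest being HCT-116 at 173 CPM and PC3 at 153 CPM, and pairs of lines were not tested. POLR3A had a 5.02-fold range, with PC3 cells highest at 203 ± 34.2 CPM, and POLR2H a 4.93-fold range, with A549 cells lowest. T47D cells were the lowest line for 22 of 36 members, counting POLR3C and POLR3E, which did not pass. How often T47D cells were the lowest line over all genes was not counted. A549 and PC3 cells shared F12K medium. In any comparison with HCT-116 or T47D cells, line and culture medium differ together and cannot be told apart.

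The hypoxia effect differed between lines for 7 of 36 members (interaction of line and state, edgeR, adjusted p under 0.05), against 18.3% of all genes tested. These were POLR3D, POLRMT, POLR2J4, POLR2K, POLR1D, POLR3E and POLR3A, with adjusted p from 0.00198 to 0.0426. Without replicate 1 or without replicate 2 of every group none passed, with 16 and 2 at an unadjusted p under 0.05, and DESeq2 called 14. Of all genes, 636 of 16155 and 165 of 16105 passed without these replicates, and 4438 of 19169 by DESeq2. POLR2A (adjusted p = 0.147), POLR3F (0.108) and POLR3G (0.0667) did not pass this edgeR test, which does not show that they changed alike in all lines. With the replicate block POLR3G and POLR1E passed and POLR2K did not, and without replicate 3 of every group 7 members passed, of which POLR2K and POLR3D were among those above.

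Fold changes of the members moved with the length and base composition of their transcripts. Spearman's rho between log2 fold change and transcript length over the members tested was 0.21 in A549 (n = 36), 0.55 in HCT-116 (n = 35), 0.52 in PC3 (n = 34) and 0.40 in T47D cells (n = 35), where all genes gave 0.14 to 0.25. For GC content rho was 0.41, 0.21, 0.44 and 0.28, where all genes gave 0.30 to 0.38. These describe genes that share libraries and carry no test. POLR2A has a transcript of 6304 bases with 56.3% GC, and POLR2K one of 947 bases with 35.7% GC. With each library corrected for its trend with GC content and length (splines fitted where the mean count was 50 or more), POLR3G remained lower in all 4 lines, at -0.75, -0.80, -0.36 and -1.02 (edgeR adjusted p from 0.000748 to 0.0434). POLR2A remained higher in A549 (0.65), HCT-116 (0.81) and T47D (0.57) cells but not in PC3 cells (0.18, edgeR adjusted p = 0.205). POLR2K lost its call in all 4 lines, at 0, -0.26, -0.16 and -0.34, and POLR3F in T47D cells (-0.39, edgeR adjusted p = 0.106) and in no other line. TWISTNB lost each of its calls, in A549 (-0.22), HCT-116 (0.10) and PC3 (-0.15) cells (edgeR adjusted p from 0.143 to 0.692). The HCT-116 increases of POLR1A, POLR2E, POLR3A, POLR3D and POLRMT also lost their calls. With the correction, POLR2G (-0.29, -0.88, -0.63 and -0.57) and POLR2L (-0.34, -1.14, -0.41 and -0.60) were called lower in all 4 lines, POLR3GL was higher in HCT-116 (0.94) and T47D (0.73) cells, and POLR1D was higher in A549 cells (0.49). Other decreases called only then included POLR1A in A549 (-0.42, edgeR adjusted p = 0.00936) and POLR2D in HCT-116 cells (-0.59). They also included CD3EAP (-0.62), POLR2F (-0.41) and POLR3D (-0.31) in PC3 and POLR3E (-0.79) and POLR3K (-0.74) in T47D cells. The corrected counts were 18 lower and 2 higher in A549, 12 and 2 in HCT-116, 10 and 0 in PC3 and 5 and 2 in T47D cells. Of all genes, 14.6%, 21.7%, 11.3% and 6.16% were then lower and 16.6%, 17.3%, 12.5% and 7.09% higher. Whether the trends are technical or part of the response was not tested.

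**Figure D5:**
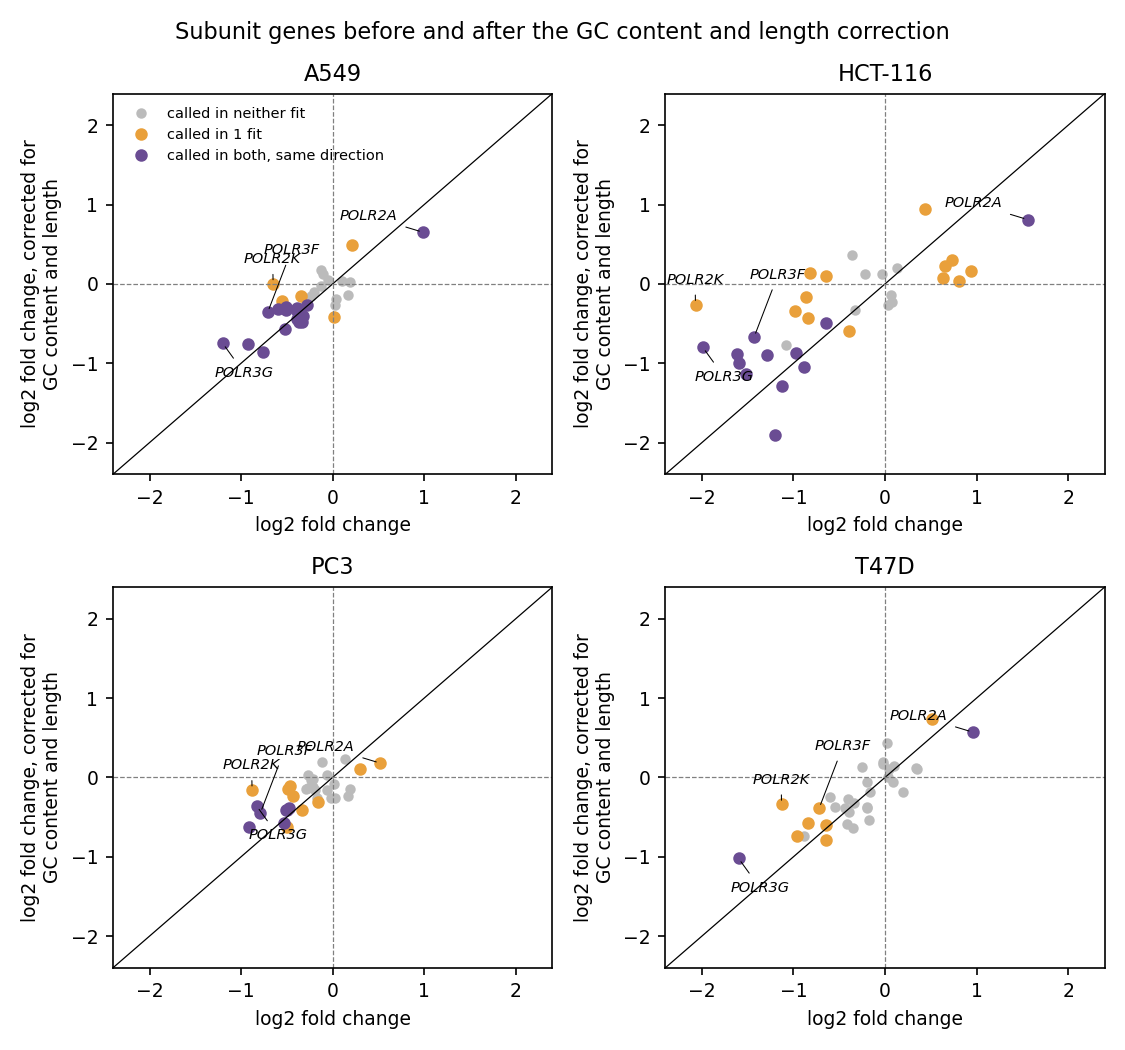
Log2 fold change of the subunit genes reported before (x axis) and after (y axis) the correction for GC content and transcript length, in 4 cell lines, with the line of equality and colors for calls. POLR2K moves from -2.07 to -0.26 in HCT-116 cells, while POLR3G stays negative and called in each line.

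Several members share exons with a gene on the opposite strand, among them CD3EAP with ERCC1, POLR2B with IGFBP7, POLR2C with DOK4, POLR2E with ARHGAP45, POLR2I with TBCB and OVOL3, POLR2J with LRWD1 and POLR2L with CD151. The libraries keep the strand, but whether the counting used it is not stated, so reads of these partners may be included. POLR2M shares exons with GCOM1 on the same strand.

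The initiation, elongation and assembly factors of these polymerases were counted as a list of 67 genes, of which 66 were tested in each line. A549 cells had 32 lower and 2 higher, HCT-116 cells 33 and 12, PC3 cells 28 and 5, and T47D cells 11 and 1, where 17.8%, 27%, 15.7% and 6.69% of all genes were lower and 17.6%, 23.3%, 16.6% and 6.55% higher. The list medians were -0.34, -0.52, -0.26 and -0.31. The mitochondrial transcription factors, partners of POLRMT, had 7, 8, 6 and 3 of 8 lower, with medians of -0.76, -1.58, -0.71 and -0.69. The Pol I factors had 6, 5, 5 and 1 of 8 lower and the assembly factors 5, 3, 2 and 2 of 10. The Pol I list includes TBP, which was lower in all 4 lines and was the 1 called in T47D cells (-0.69). The 24 Pol II factors tested had 11, 12, 10 and 3 lower and 1, 6, 2 and 1 higher, and the 16 Pol III factors 3, 5, 5 and 2 lower and 1, 4, 3 and 0 higher, with medians from -0.11 to 0.15. NELFE was listed at 0 in every library and lies in the region of chromosome 6 named above.

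In all 4 lines 9 factors were lower, as were 3.36% of all genes tested in every line, and the 5 with the largest mean change are given first. TEFM, the mitochondrial elongation factor, had log2 fold changes of -0.91, -2.38, -0.81 and -1.25, in the order A549, HCT-116, PC3 and T47D. GTF2H2, of the Pol II factor TFIIH, had -1.09, -1.49, -0.92 and -1.22, and SNAPC5, of the complex that recruits polymerases to small nuclear RNA genes, had -0.60, -1.52, -0.93 and -1.32. MTERF2 (MTERFD3 in the files) had -0.85, -1.90, -0.82 and -0.85, and MNAT1, of the kinase module of TFIIH, had -0.78, -1.96, -0.56 and -0.98. The others were TBP, GTF2A2, MTERF3 (MTERFD1) and RPAP2. At least 3 lines showed a decrease for 10.5% and an increase for 9.13% of all genes. Lower in 3 lines were TAF1A, TAF1C, GTF2B, GTF2H1, GTF2H3, CCNH, SUPT4H1, SNAPC1, TFAM, TFB2M, MTERF and GPN1. Higher in 3 lines were NELFB, CTDP1 and MAF1, of which MAF1 is the general repressor of Pol III.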

How the data were processed

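Polyadenylated RNA of 24 libraries (4 cell lines, normoxia and hypoxia, 3 replicates each) was sequenced with a directional kit. Per the labels and the study's methods, the authors trimmed reads with Trim Galore 0.3.3, aligned them to GRCh37 with HISAT2 2.05, processed them with Picard 2.0.1 and counted them per gene with HTSeq 0.5.4p3 (intersection-strict), and the deposited values are raw counts. The strand setting of the counting is not given in the sources used here.

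Each line was fitted separately with the edgeR 4.0.16 quasi-likelihood test (R 4.3.3) after filterByExpr and TMM normalization, and p values were adjusted over all genes tested by the Benjamini-Hochberg method. Calls needed a fold change over 1.2 beside an adjusted p under 0.05. Printed CPM use TMM factors over all 24 libraries. Exon counts and transcript lengths come from GENCODE for GRCh37, 1 canonical transcript a gene. Scripts were tested on simulated data. No pair of libraries held identical counts. Replicate numbers paired the libraries in PC3 (correlation of deviations of same-numbered libraries from 0.103 to 0.147) and T47D cells (0.207 to 0.279), by the data alone. In A549 (-0.077 to 0.244) and HCT-116 cells (0.085 to 0.327), 3 of 6 and 4 of 6 libraries were closest to their own number. Whether numbers pair the libraries of these lines was left undecided. Alternatives were DESeq2 1.42.0, other scalings, filters and thresholds, a replicate block, a correction for GC content and length, a single fit, and leaving out libraries.

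The members, gene lists and tests were chosen with earlier results of these data known. Values in every library are given for the largest subunits and POLRMT, POLR3G and POLR3GL, members with the largest changes per line, those called in 1 direction in all 4 lines or in opposite directions, and those with the 3 smallest interaction p values. POLR2G and ZNRD1 fall under the largest changes. Single values of 1 member and of some marker genes are not reported here, and counts and medians include that member. Factors outside the enzymes are named where called in at least 3 lines.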

Additional observations from a re-analysis of the deposited data

Results flagged for a closer look

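The hypoxia effect of 7 of 36 subunit genes differed between the 4 lines by the test of the difference itself, the interaction of line and state (edgeR quasi-likelihood test over all 24 libraries, adjusted over all genes tested), which 18.3% of all genes also did. None passed without replicate 1 or without replicate 2 of every group, where 16 and 2 had an unadjusted p under 0.05 by edgeR, and DESeq2 called 14 on all libraries. Of all genes, 636 of 16155 and 165 of 16105 passed without these replicates, and 4438 of 19169 by DESeq2. POLR3D (adjusted p = 0.00198) had log2 fold changes of -0.33 in A549, 0.73 in HCT-116, -0.16 in PC3 and 0.09 in T47D cells. POLRMT (adjusted p = 0.022) had 0.17, 0.81, 0.19 and -0.17 in the same order. POLR2J4 (adjusted p = 0.0263) had 0.03, -1.20, 0.03 and -0.35, and its counts are uncertain because near-identical copies exist. POLR2K (adjusted p = 0.03) was lower in all 4 lines, by log2 fold changes of -0.65, -2.07, -0.88 and -1.13, and it did not pass the interaction test with the replicate block. The GC content and length correction ended its call in all 4 lines (0, -0.26, -0.16 and -0.34). POLR1D (adjusted p = 0.0326) had 0.21, -0.82, -0.47 and 0.02. POLR3E (adjusted p = 0.0414) had -0.32, 0.08, 0.01 and -0.64. POLR3A (adjusted p = 0.0426) had 0.04, 0.63, -0.02 and 0.34. The HCT-116 calls of POLR3D, POLRMT, POLR3A and POLR1D were also lost with that correction (0.30, 0.04, 0.07 and 0.14). HCT-116 cells had the value farthest from 0 for each of these genes except POLR3E. With the threshold at an adjusted p under 0.01, POLR3D alone passed.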

How the results depend on the processing

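Of the alternatives to the counts, polymerase differences and ratio, 230 left the value as it was within the set limits and 64 moved it. The GC content and length correction turned POLR1A in A549 cells to -0.42 and brought POLR2K in A549 cells to 0, with and without the replicate block, and the cause was not tested. POLR1A was then called lower in A549 cells (edgeR adjusted p = 0.00936 without the block). The correction gave 2, 2, 0 and 2 higher members in A549, HCT-116, PC3 and T47D cells, against 16.6%, 17.3%, 12.5% and 7.09% of all genes. In T47D cells it gave 5 lower (6.16% of all genes), and with the block 3 higher (12.2%) and 7 lower (13.2%). It moved Pol I minus Pol II in A549 cells to -0.29 (-0.30 with the block) and Pol III minus Pol II to -0.03 in PC3 (-0.04) and -0.13 in T47D cells (-0.13). A fold change over 1.5 left 6 lower members in A549 cells (8.23% of all genes) and 0 higher (7.57%) and 4 lower (6.62%) in PC3 cells. An adjusted p under 0.01 left 9 lower in A549 (9.33% of all genes), 3 higher in HCT-116 (14.7%) and 0 higher (7.26%) and 7 lower (4.25%) in PC3 cells. It left 0 higher (2.19%) and 0 lower (0.767%) in T47D cells, and 1 interaction (847 of 16089 genes). DESeq2 gave 7 lower in T47D cells (8.02% of all genes) and 14 interactions (4438 of 19169 genes). Lower members in T47D cells numbered 8 with total-count scaling (10% of all genes) and 6 with no filter (7.25%). Total-count scaling moved the median of all genes to -0.13 in A549 and -0.12 in T47D cells, and that of the members to -0.44 and -0.34. A single fit of all 24 libraries gave 5 lower in A549 (7.35% of all genes) and 0 higher (5.39%) and 7 lower (2.64%) in PC3 cells. It gave 2 higher (13.9%) and 7 lower (9.94%) in T47D cells, with Pol I minus Pol II at 0 in PC3 cells. Counting shared subunits in each polymerase gave -0.08 and -0.11 in HCT-116 cells for Pol I and Pol III minus Pol II, and counting the related rows in Pol II gave 0.75 and 0.68.

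With 1 library left out, higher members ranged from 1 to 2 in A549, 4 to 6 in HCT-116, 0 to 3 in PC3 and 0 to 2 in T47D cells, and lower members from 10 to 17, 12 to 17, 8 to 15 and 0 to 10. Of all genes, 11.7% to 19.1%, 18.6% to 25%, 9.57% to 19.4% and 1.26% to 10.8% were then higher. Those lower were 10.4% to 18.6%, 19.6% to 24.2%, 6.4% to 20.1% and 0.133% to 12.2%. Pol I minus Pol II ranged from -0.23 to -0.11, 0.21 to 0.60, -0.34 to 0.02 and -0.02 to 0.29, and Pol III minus Pol II from -0.10 to 0.02, 0.13 to 0.60, -0.08 to 0.31 and -0.04 to 0.18. Interactions ranged from 0 to 7, members that differed between lines in normoxia from 31 to 33, and the mean change of the POLR3G to POLR3GL ratio from -1.76 to -1.38.

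With the replicate block, lower members numbered 17 in A549, 18 in HCT-116, 12 in PC3 and 7 in T47D cells, with 1, 6, 2 and 1 higher and 8 interactions. Of all genes, 18%, 29.6%, 16.6% and 10.5% were lower and 18%, 26.8%, 17.4% and 9.09% higher, and 3683 of 16089 had an interaction. Same-numbered libraries correlated from -0.077 to 0.244 in A549 and from 0.085 to 0.327 in HCT-116 cells, where 3 of 6 and 4 of 6 libraries were closest to their own number. The block lost POLR2I and POLR3E in A549 cells, added POLR2J3 in HCT-116 and CD3EAP in PC3 cells and POLR2G, POLR2M, POLR3E and POLR3K in T47D cells, and changed no other call of a member in its line.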
